A study of Mus musculus with 16 samples.

Results

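The carboxylesterases described here are 8 mouse genes, Ces1d, Ces1f and Ces1g of the Ces1 class and Ces2a, Ces2b, Ces2c, Ces2e and Ces2g of the Ces2 class, taken by gene symbol from a table of 24091 genes. The table holds 19 carboxylesterase genes, and the other 11 are covered by their levels. RNA was sequenced from intestinal epithelial cells of the caecum of C57BL/6 mice, released from the tissue with DTT, EDTA and the protease Dispase. The 9 libraries form 3 groups of 3. Mice given ampicillin and tributyrin drank 1 g/L ampicillin for 7 days and received tributyrin, an ester of glycerol and butyrate, by gavage on the last day (ampicillin-tributyrin). Mice given ampicillin and a mock gavage drank the same antibiotic and received 25% glycerol (ampicillin-mock). Mice given vehicle and a mock gavage drank no ampicillin and received 25% glycerol (vehicle-mock). All 3 groups had 10 g/L Splenda in the drinking water, and cells were harvested 6 h after the gavage. The 7 chromatin samples of the 16 in the series were not analysed here.

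Carboxylesterases are serine hydrolases of the endoplasmic reticulum that cut ester bonds in lipids such as acylglycerols and cholesteryl and retinyl esters, and in many ester drugs and prodrugs. In mice the family expanded into tandem gene clusters, so that several mouse genes stand where humans have CES1 or CES2. CES1 is the main form of the human liver, and CES2 is the form known for the gut epithelium, where it activates the prodrug irinotecan. Tributyrin itself is a classical laboratory substrate of esterases and lipases, which release butyrate from it.

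The 8 genes lay in 2 clusters on chromosome 8 (GRCm38.p6, the patch release of the mm10 build, RefSeq annotation). The Ces1 cluster spanned 359.564 kb, with Ces1d at chr8:93166072-93197804, Ces1f at chr8:93256236-93279766 and Ces1g at chr8:93302369-93337209. The Ces2 cluster spanned 286.408 kb, with Ces2a at chr8:104734003-104741634, Ces2b at chr8:104828494-104840093, Ces2c at chr8:104847068-104854483, Ces2e at chr8:104926260-104934672 and Ces2g at chr8:104961596-104969537. Both spans include carboxylesterase genes that are not among the 8. Ces1g lay on the minus strand, and Ces2a, Ces2c, Ces2e and Ces2g on the plus strand. The strand of Ces1d, Ces1f and Ces2b was not read. Because tandem copies are alike in sequence, the division of reads between them is uncertain, and a value for one gene can hold reads of its neighbours.

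RefSeq promoter windows, which run from 250 bases before to 50 bases after the annotated start, were found for 5 of the 8 genes (Ces1g, Ces2a, Ces2c, Ces2e and Ces2g). The windows of Ces1g, Ces2a, Ces2c and Ces2e are shown because these genes moved in different directions in the comparisons that follow. They lie at chr8:93337160-93337459 (minus strand), chr8:104733753-104734052, chr8:104846818-104847117 and chr8:104926010-104926309 (plus strand), and are written 5′ to 3′ on the gene's strand. Capitals mark the matches to the motifs described after them.
Ces1g: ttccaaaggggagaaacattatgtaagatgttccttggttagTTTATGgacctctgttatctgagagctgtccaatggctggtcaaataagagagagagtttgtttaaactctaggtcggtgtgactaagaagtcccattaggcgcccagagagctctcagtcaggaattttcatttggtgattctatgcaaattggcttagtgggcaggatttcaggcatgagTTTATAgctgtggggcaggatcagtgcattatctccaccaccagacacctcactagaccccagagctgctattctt
Ces2a: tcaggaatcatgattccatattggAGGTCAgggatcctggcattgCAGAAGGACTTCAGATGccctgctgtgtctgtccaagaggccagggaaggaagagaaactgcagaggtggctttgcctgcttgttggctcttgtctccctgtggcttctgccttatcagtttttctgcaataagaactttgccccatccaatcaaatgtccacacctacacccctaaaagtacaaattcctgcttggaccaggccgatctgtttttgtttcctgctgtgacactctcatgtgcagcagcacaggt
Ces2c: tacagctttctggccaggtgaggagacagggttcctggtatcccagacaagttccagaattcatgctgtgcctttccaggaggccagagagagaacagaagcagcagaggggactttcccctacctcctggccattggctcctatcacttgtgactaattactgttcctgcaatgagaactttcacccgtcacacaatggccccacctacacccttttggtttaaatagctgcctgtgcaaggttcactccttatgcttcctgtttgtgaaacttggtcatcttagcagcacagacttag
Ces2e: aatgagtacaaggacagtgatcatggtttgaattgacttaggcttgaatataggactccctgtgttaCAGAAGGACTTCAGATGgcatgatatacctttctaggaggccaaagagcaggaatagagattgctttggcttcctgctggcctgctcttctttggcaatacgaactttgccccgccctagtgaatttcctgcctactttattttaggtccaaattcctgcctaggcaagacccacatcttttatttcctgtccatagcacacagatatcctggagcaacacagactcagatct
The motifs were searched on both strands, and none of their matches overlapped another. TTTATG, the CDX2 motif, stood in the Ces1g window at bases 43 to 48, counted from the 5′ end, and in 11.9% of all 32851 promoter windows. TATAAA stood in the Ces1g window on the opposite strand, at bases 225 to 230, and in 13.6% of all windows. AGGTCA, the core motif of nuclear receptors, stood in the Ces2a window at bases 25 to 30 and in 16.3% of all windows. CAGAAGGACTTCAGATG, the longest run shared by the windows of Ces2a (bases 46 to 62) and Ces2e (bases 68 to 84), was chosen after the sequences were seen, and it stood in 2 of all windows (0.00609%), those of these genes. The Ces2c window held none of these letters, and the Ces2g window held TTTATG at bases 72 to 77. CAAAGTCCA (HNF4, 0.475% of all windows), CACGTG (E-box, 7.15%) and the DR1 motif, AGGTCA repeated with a spacer of 1 base (0.0396%), were in none of the 5 windows. Among the Ces2 windows, Ces2a and Ces2c were the most alike, at 65.4% identity, and Ces2a and Ces2e were 54.9% identical. Ces1g was 45.4% to 49.1% identical to the Ces2 windows. Ces2a and Ces2e, which share the run of 17 bases, moved in opposite directions with ampicillin. Both were lower in ampicillin-tributyrin than in ampicillin-mock libraries, each at a log2 fold change of -0.44. A link between the run and these changes was not tested. A long shared run was not particular to these genes. The windows of Ces2c and Ces2g shared a longer one, of 19 bases, which is not marked in capitals. How many of all windows hold that longer run was not counted.

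Values are TPM, a transcript abundance scaled for transcript length and library total, so levels can be compared between genes. TPM keeps no read depth, and the depth of the libraries is unknown. Folds were fitted on log2(TPM + 1), a scale that understates the change of low genes. A gene was called at an adjusted p under 0.05 in limma (Benjamini-Hochberg over the 12155 genes with a mean of at least 1 TPM). All 8 carboxylesterases passed that filter, Ces2g having the lowest mean of the 8 at 9.60 TPM. The labels do not say whether each library is a different animal, so the p-values weigh differences against a spread that could be purely technical.

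The labelled cell type was checked with marker lists. The summed TPM of 6 epithelial markers was 10500 to 11405 in ampicillin-tributyrin, 9283 to 9664 in ampicillin-mock and 11388 to 12882 in vehicle-mock libraries, whereas 6 fibroblast markers summed to at most 0.417 TPM in every library. Within the groups some libraries differed in these sums. Vehicle-mock replicate 2 had the highest sum of 14 small intestinal enterocyte markers, 2739 TPM against 1988 to 2022 TPM in the other vehicle-mock libraries, and the highest sum of 7 Paneth cell markers, 85.6 TPM against 8.16 and 31.9 TPM in vehicle-mock replicates 1 and 3. Vehicle-mock replicate 1 had the highest goblet cell sum of its group, 12437 against 9541 and 9915 TPM, and ampicillin-mock replicate 3 the highest erythroid sum of its group, 36.6 against 13.4 and 16.7 TPM. The members' fold changes against vehicle-mock are also given without vehicle-mock replicate 2. In bulk RNA, fewer cells of a type and less RNA per cell cannot be told apart.

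With ampicillin and a mock gavage, against vehicle and a mock gavage, 7 of the 8 carboxylesterases were called, against 21.3% of all genes tested. Of these, 4 (Ces1d, Ces1f, Ces1g and Ces2a) were lower, as were 10.2% of all genes, and 3 (Ces2b, Ces2c and Ces2e) were higher, as were 11.0% of all genes. The mean of Ces2a was 0.410 times that of vehicle-mock libraries and that of Ces1g 0.449 times, whereas Ces2b stood at 1.81 times and Ces2e at 1.69 times. Those 7 members had no overlap between the groups' libraries, as had 40.8% of all genes. The median log2 fold change of the 8 was -0.07, beside 0.02 over all genes. The median size of the change, whatever its sign, was 0.77 for the 8 and 0.13 over all genes.

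In the Ces1 class, Ces1g is a lipid hydrolase of liver and intestine whose loss in mice leads to obesity and fatty liver. Its level was 160.0, 169.9 and 138 TPM in ampicillin-mock libraries 1 to 3, against 402, 314 and 327 TPM in vehicle-mock libraries 1 to 3. All 3 ampicillin-mock libraries lay below all vehicle-mock ones, and vehicle-mock replicate 1 was the highest. The means were 156 ± 16.1 and 348 ± 47.8 TPM (SD, n = 3 each). The log2 fold change was -1.15 ± 0.11 (SE, limma adjusted p = 0.000207).

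Ces1d, known as triacylglycerol hydrolase, mobilises stored triglyceride in liver and fat cells of mice. It had 62.1, 76.7 and 74.3 TPM in ampicillin-mock libraries, against 129.5, 103 and 152 TPM in vehicle-mock libraries. The groups did not overlap, and vehicle-mock replicate 2 was the lowest of its group. The means were 71.0 ± 7.83 and 128 ± 24.5 TPM (SD, n = 3 each), with a log2 fold change of -0.83 ± 0.13 (SE, limma adjusted p = 0.00289).

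Ces1f, a related triglyceride hydrolase of the mouse liver, changed least of the called Ces1 genes. It had 154, 168 and 176 TPM in ampicillin-mock libraries, against 186, 194 and 213 TPM in vehicle-mock libraries. The groups were apart by less than the spread within either of them. The log2 fold change was -0.25 ± 0.074 (SE, limma adjusted p = 0.0425). This call was lost without vehicle-mock replicate 2 (adjusted p = 0.0765) or 3 (0.132), ampicillin-mock replicate 1 (0.133) or 2 (0.0976), or ampicillin-tributyrin replicate 2 (0.0631), with no filter on low values (0.0604) and with only the 2 groups in the fit (0.0595).

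In the Ces2 class, Ces2a had the largest change of the 8. Its level was 63.2, 70.8 and 73.3 TPM in ampicillin-mock libraries, against 149, 168 and 188 TPM in vehicle-mock libraries. The highest ampicillin-mock library lay far below the lowest vehicle-mock one. The means were 69.1 ± 5.28 and 168 ± 19.9 TPM (SD, n = 3 each), and the log2 fold change was -1.27 ± 0.11 (SE, limma adjusted p = 0.000128).

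Ces2e and Ces2b went the other way. Ces2e had 528, 587 and 628 TPM in ampicillin-mock libraries, against 322, 344 and 367 TPM in vehicle-mock libraries. Its groups were far apart, and its means were 581 ± 50.4 and 344 ± 22.4 TPM (SD, n = 3 each), a log2 fold change of 0.75 ± 0.084 (SE, limma adjusted p = 0.000500). Ces2b was far less abundant, with 15.9, 18.1 and 22.1 TPM in ampicillin-mock libraries, against 9.15, 10.6 and 11.2 TPM in vehicle-mock libraries. All 3 ampicillin-mock libraries were above all vehicle-mock ones, and the log2 fold change of 0.79 ± 0.13 (SE, limma adjusted p = 0.00307) was close to that of Ces2e.

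Ces2c, an acylglycerol hydrolase of the mouse intestine and liver, was abundant in every library. It had 530.3, 530.4 and 555 TPM in ampicillin-mock libraries, against 450.2, 462 and 505 TPM in vehicle-mock libraries. The groups did not overlap, but vehicle-mock replicate 3 came close, and the log2 fold change was 0.19 ± 0.055 (SE, limma adjusted p = 0.0402). The call was lost without vehicle-mock replicate 1 (0.115) or 2 (0.0982), without ampicillin-mock replicate 1 (0.0828), 2 (0.0889) or 3 (0.127) or ampicillin-tributyrin replicate 2 (0.0570), and under 4 other settings (adjusted p from 0.0509 to 0.0637).

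Ces2g was the one member not called. It ranged from 9.56 to 10.2 TPM in ampicillin-mock and from 8.73 to 9.65 TPM in vehicle-mock libraries, and the groups overlapped (log2 fold change 0.12 ± 0.071 SE, limma adjusted p = 0.290). Without vehicle-mock replicate 2, the 5 members Ces1d, Ces1g, Ces2a, Ces2b and Ces2e were still called, with log2 fold changes of -0.98, -1.22, -1.27, 0.81 and 0.75. For each of the 7 members whose groups did not overlap, the two-sided exact permutation test gave p = 0.1, the smallest that 3 against 3 libraries allow.

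**Figure D1:**
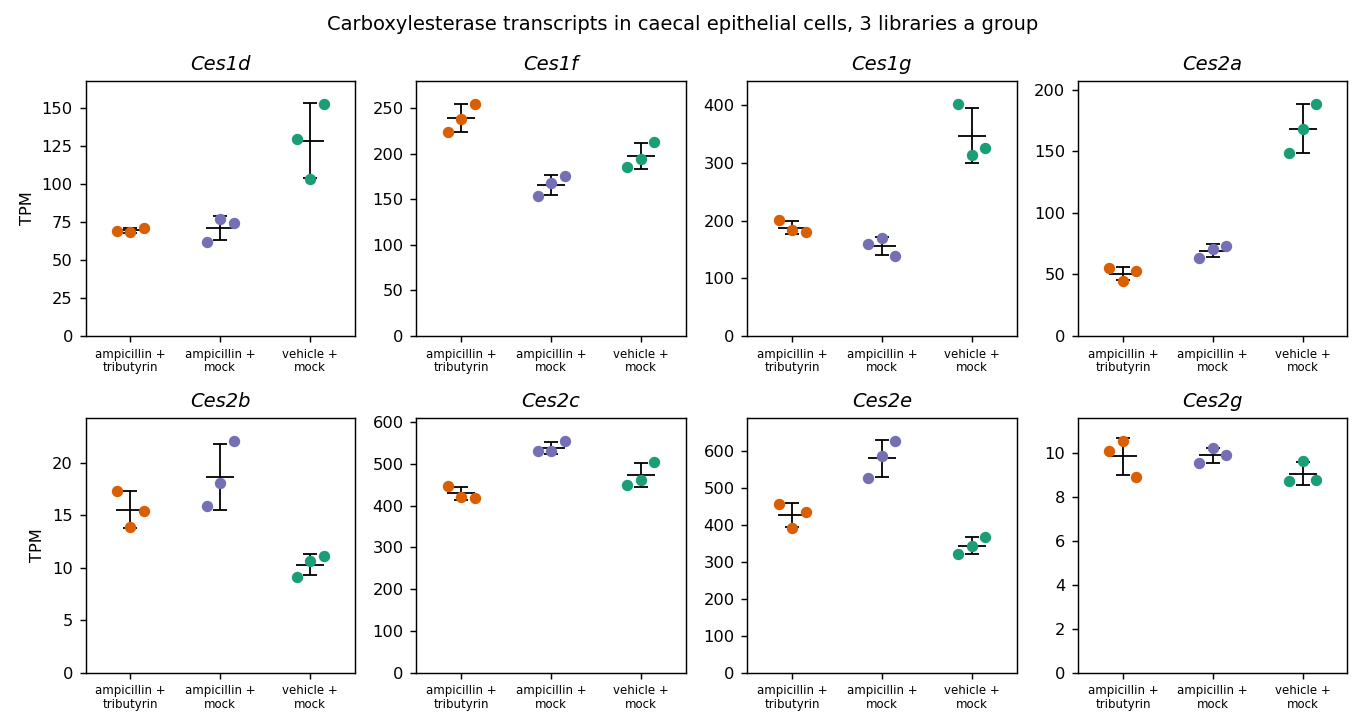
TPM of each of the 8 carboxylesterases in the 9 libraries, one panel per gene on a linear axis from 0, with points for libraries and lines for group means and SD, and with ampicillin-tributyrin at the left, ampicillin-mock in the middle and vehicle-mock at the right. Ces2a, Ces1g and Ces1d sit highest in vehicle-mock libraries (means of 168, 348 and 128 TPM), Ces2e, Ces2c and Ces2b in ampicillin-mock libraries (581, 538 and 18.7 TPM), and Ces1f in ampicillin-tributyrin libraries (239 TPM).

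Markers of the labelled epithelium and of other cells also moved between these groups. Of the 14 small intestinal enterocyte markers, 10 were tested, 3 were called higher and 4 lower with ampicillin. The higher ones were Mep1a (log2 fold change 0.50), Rbp2 (0.54) and Slc5a1 (0.32), and the lower ones were Alpi (-1.17), Anpep (-1.61), Apoa1 (-3.30) and Fabp6 (-3.98). The lower ones included genes with a very uneven vehicle-mock level, such as Fabp6, an ileal bile acid binding protein, at 3.03 ± 0.726 TPM in ampicillin-mock and 137 ± 181 TPM in vehicle-mock libraries (SD, n = 3 each). Of 7 Paneth markers, 5 were tested and 3 were lower, the sum ranging from 2.43 to 5.79 TPM in ampicillin-mock and from 8.16 to 85.6 TPM in vehicle-mock libraries. Of 6 epithelial markers, 5 were lower. Of 8 absorptive colonocyte markers 1 was higher and 2 lower, and of 6 goblet cell markers 2 were lower. Of 4 endothelial markers, Pecam1, the one tested, was lower (-1.59). Their sums were 0.578 to 0.796 TPM in ampicillin-mock and 3.59 to 4.15 TPM in vehicle-mock libraries. Pecam1 was thus under the filter's 1 TPM in every ampicillin-mock library. It passed the filter through the other groups, which favours a lower call. Of 6 myeloid markers 3 were tested and 1 was lower, and no T cell or erythroid marker was called. Over all genes, 11.0% were higher and 10.2% lower. The part of these cells in the carboxylesterase changes was not tested.
Ces1 enzymes are best known from liver and fat, so markers of those tissues were also read. Of 8 hepatocyte markers, Fga and Fgb were at 0 in every library, and Alb averaged 0.338 TPM in ampicillin-mock and 0.0687 TPM in vehicle-mock libraries. The summed level, 72.8 to 75.3 TPM in ampicillin-mock and 56.6 to 61.0 TPM in vehicle-mock libraries, was mostly Ttr (70.0 and 54.5 TPM). Of 7 adipocyte markers, Lep and Retn were at 0 in every library and Plin1 was at 0 in these groups. Their sum, 6.26 to 7.49 TPM in ampicillin-mock and 10.8 to 15.1 TPM in vehicle-mock libraries, was mostly Cidec, the one marker tested, which was lower.

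With ampicillin and tributyrin, against ampicillin and a mock gavage, 4 of the 8 carboxylesterases were called, against 23.2% of all genes tested. Ces1f was higher (15.6% of all genes were called higher), and Ces2a, Ces2c and Ces2e were lower (7.54%). For 5 members the groups' libraries were fully apart, as for 42.6% of all genes. The median log2 fold change of the 8 was -0.13, beside 0.05 over all genes, and the median size of the change was 0.30, beside 0.15.

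Ces1f had 224, 238 and 254 TPM in ampicillin-tributyrin libraries, against 154, 168 and 176 TPM in ampicillin-mock libraries. All 3 ampicillin-tributyrin libraries were above all ampicillin-mock libraries and also above the vehicle-mock ones. The means were 239 ± 15.2 and 166 ± 10.9 TPM (SD, n = 3 each), and Ces1f rose by a log2 fold change of 0.52 ± 0.074 (SE, limma adjusted p = 0.00217).
Ces1g, its neighbour in the cluster, had 201, 184 and 179.9 TPM in ampicillin-tributyrin libraries, against 160.0, 169.9 and 138 TPM in ampicillin-mock libraries. The groups did not overlap, but the log2 fold change of 0.27 ± 0.11 (SE) did not pass (limma adjusted p = 0.102). Ces1d averaged 69.6 ± 1.57 TPM in ampicillin-tributyrin and 71.0 ± 7.83 TPM in ampicillin-mock libraries (SD, n = 3 each), with overlapping groups and a limma adjusted p of 0.922.

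Ces2e had 456, 391 and 435 TPM in ampicillin-tributyrin libraries, against 528, 587 and 628 TPM in ampicillin-mock libraries. All 3 ampicillin-tributyrin libraries were below the lowest ampicillin-mock library, and the log2 fold change was -0.44 ± 0.084 (SE, limma adjusted p = 0.00780). Ces2c had 447, 420.4 and 419 TPM in ampicillin-tributyrin libraries, against 530.3, 530.4 and 555 TPM in ampicillin-mock libraries. Its groups lay well apart, with a log2 fold change of -0.33 ± 0.055 (SE, limma adjusted p = 0.00447).
Ces2a had 54.9, 44.7 and 52.5 TPM in ampicillin-tributyrin libraries, against 63.2, 70.8 and 73.3 TPM in ampicillin-mock libraries. It had been lower with ampicillin and was lower again here, by a log2 fold change of -0.44 ± 0.11 (SE, limma adjusted p = 0.0197). That call was lost without ampicillin-mock replicate 2 (0.0665) or 3 (0.0637) or ampicillin-tributyrin replicate 2 (0.0666). Ces2b averaged 15.5 ± 1.75 TPM in ampicillin-tributyrin and 18.7 ± 3.16 TPM in ampicillin-mock libraries, and Ces2g 9.85 ± 0.853 and 9.89 ± 0.327 TPM (SD, n = 3 each). The groups of both genes overlapped, with limma adjusted p of 0.198 and 0.948. The two-sided exact permutation test gave p = 0.1 for each of the 5 members that did not overlap.

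Blood and T cell markers moved with this comparison. Of 3 erythroid markers in the table, 2 were tested and both were higher with tributyrin, the sum of the 3 ranging from 94.3 to 134 TPM in ampicillin-tributyrin and from 13.4 to 36.6 TPM in ampicillin-mock libraries. Of 6 T cell markers, 3 were higher, with sums of 25.1 to 45.9 and 13.7 to 22.2 TPM. Of 6 epithelial markers, 2 were higher and none lower. Of 8 absorptive colonocyte markers, 2 were higher and 1 was lower. Of 14 small intestinal enterocyte markers, 10 were tested, none was higher and 1 was lower. Of 8 hepatocyte markers, 2 were tested and 1, Ttr, was higher, the sum ranging from 92.9 to 104.0 TPM in ampicillin-tributyrin and from 72.8 to 75.3 TPM in ampicillin-mock libraries. Of 7 adipocyte markers, Cidec, the one tested, was higher, with sums of 10.6 to 13.7 and 6.26 to 7.49 TPM. Of 4 endothelial markers, Pecam1, the one tested, was higher, with sums of 1.197 to 1.81 and 0.578 to 0.796 TPM. Against vehicle-mock libraries, whose sums were 3.59 to 4.15 TPM, Pecam1 was called lower with ampicillin and tributyrin. Its calls rest on low values, under the filter's 1 TPM in every ampicillin-mock library. Fga, Fgb, Lep and Retn were at 0 in every library, whereas none of the erythroid, T cell or endothelial markers was at 0 throughout. Over all genes, 15.6% were called higher and 7.54% lower with tributyrin against mock gavage. The counts of absorptive colonocyte and small intestinal enterocyte markers lay near these shares. The part of these cells in the carboxylesterase changes was not tested.

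With ampicillin and tributyrin, against vehicle and a mock gavage, 6 of the 8 members were called, against 28.3% of all genes, 3 of them higher (19.1% of all genes) and 3 lower (9.21%). This comparison shares its ampicillin-tributyrin libraries with the second comparison and its vehicle-mock libraries with the first, so it is not independent of them. Both ampicillin and tributyrin differ between its groups, and their parts cannot be told apart in it. The groups did not overlap for 7 members, against 41.7% of all genes. Ces2a stood at 50.7 ± 5.37 TPM in ampicillin-tributyrin against 168 ± 19.9 TPM in vehicle-mock libraries (SD, n = 3 each), a ratio of 0.301 (log2 fold change -1.71 ± 0.11 SE, limma adjusted p = 5.39e-05). Ces1g and Ces1d were also lower, at ratios of 0.541 and 0.542. Without vehicle-mock replicate 2, the log2 fold changes of Ces2a, Ces1g and Ces1d were -1.71, -0.95 and -1.004.
Ces1f was higher, at 1.21 times its vehicle-mock mean, Ces2e at 1.24 times and Ces2b at 1.51 times (limma adjusted p = 0.0260, 0.0262 and 0.0148). In this comparison these 3 calls were less stable than those of Ces1d, Ces1g and Ces2a, which held under all 17 alternatives. Without vehicle-mock replicate 1, none of them passed (adjusted p = 0.0811 for Ces1f, 0.0839 for Ces2e and 0.0523 for Ces2b). Without vehicle-mock replicate 2, Ces2b alone of them passed. Ces1f was also lost without ampicillin-tributyrin replicate 2 (0.0714) or 3 (0.0628), Ces2e without ampicillin-tributyrin replicate 1 (0.0864) or 3 (0.0584), and Ces2b without ampicillin-tributyrin replicate 1 (0.0505). Ces2c, at 429 ± 15.9 TPM in ampicillin-tributyrin and 472 ± 28.9 TPM in vehicle-mock libraries (SD, n = 3 each), did not pass (adjusted p = 0.0935).

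**Figure D2:**
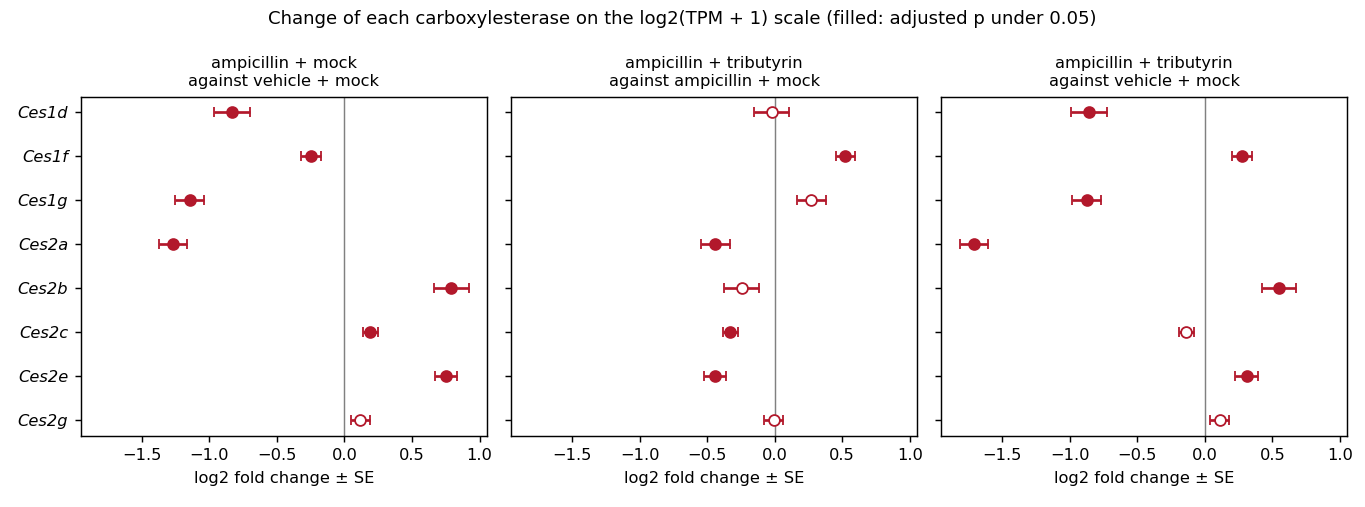
Log2 fold change, on the log2(TPM + 1) scale, of each carboxylesterase in the 3 comparisons, with bars for the standard error of the limma fit and filled points for calls at an adjusted p under 0.05. Ces2a is negative in all 3 comparisons (-1.27, -0.44 and -1.71), Ces1d and Ces1g are far below 0 in both comparisons with vehicle-mock, and Ces1f lies on the negative side with ampicillin (-0.25) and on the positive side with tributyrin (0.52).

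Between ampicillin-mock and vehicle-mock libraries, the members' make-up differed more than their total. The summed TPM of the 8 genes was 1371 to 1480 in ampicillin-tributyrin, 1523 to 1677 in ampicillin-mock and 1606 to 1772 in vehicle-mock libraries, with means of 1429 ± 54.9, 1610.2 ± 78.8 and 1678 ± 85.5 TPM (SD, n = 3 each). The ampicillin-mock and vehicle-mock sums overlapped, and every ampicillin-tributyrin sum lay below all of them. The 3 Ces1 genes held 34.8 ± 1.25% of the sum in ampicillin-tributyrin, 24.4 ± 1.15% in ampicillin-mock and 40.2 ± 2.79% in vehicle-mock libraries (SD, n = 3 each). These shares did not overlap between any of the groups, and the vehicle-mock mean was 41.2% without replicate 2. Ces2e alone held 29.9%, 36.0% and 20.5% of the sum in the same order of groups, Ces1g 13.2%, 9.73% and 20.8%, and Ces2a 3.54%, 4.29% and 10.0%.
The ratio of Ces2e to Ces2a was 8.31, 8.75 and 8.28 in ampicillin-tributyrin, 8.36, 8.30 and 8.57 in ampicillin-mock and 2.17, 2.05 and 1.95 in vehicle-mock libraries. It overlapped between the ampicillin groups, in which both genes were lower with tributyrin, and every ampicillin library lay far above the highest vehicle-mock library. The ratio of Ces1g to Ces1f averaged 0.791 ± 0.0961 in ampicillin-tributyrin, 0.947 ± 0.138 in ampicillin-mock and 1.77 ± 0.344 in vehicle-mock libraries (SD, n = 3 each).

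**Figure D3:**
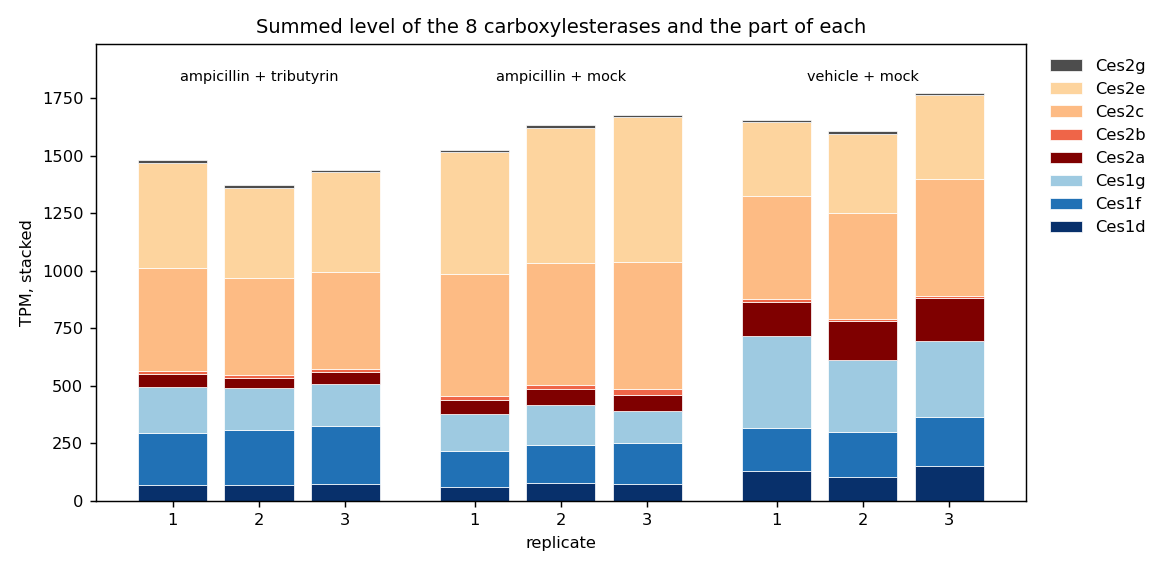
Summed TPM of the 8 carboxylesterases in each library, stacked by gene from 0, with ampicillin-tributyrin libraries at the left and vehicle-mock libraries at the right. Ces2e holds 36.0% of the ampicillin-mock sums and 20.5% of the vehicle-mock sums on average, and Ces1g 9.73% and 20.8%.

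The order of the levels changed with the groups. In ampicillin-tributyrin libraries it was Ces2c (429 TPM), Ces2e (427), Ces1f (239), Ces1g (188), Ces1d (69.6), Ces2a (50.7), Ces2b (15.5) and Ces2g (9.85), and of the neighbours in that order only Ces2c and Ces2e overlapped. In ampicillin-mock libraries it was Ces2e, Ces2c, Ces1f, Ces1g, Ces1d, Ces2a, Ces2b and Ces2g, with overlaps between Ces2e and Ces2c, between Ces1f and Ces1g, and between Ces1d and Ces2a. In vehicle-mock libraries it was Ces2c, Ces1g, Ces2e, Ces1f, Ces2a, Ces1d, Ces2b and Ces2g, with overlaps between Ces1g and Ces2e, between Ces1f, Ces2a and Ces1d as neighbours, and between Ces2b and Ces2g. Ces1g and Ces2e overlapped in vehicle-mock libraries, and Ces1g lay far below Ces2e in both ampicillin groups.
As a description over the 9 libraries, the members' profiles were compared by the root mean square difference of their log2(TPM + 1) values, each centred on its own mean. The smallest was 0.12 between Ces2b and Ces2e, followed by 0.16 between Ces2c and Ces2g and 0.23 between Ces1d and Ces1g. The widest were 1.02 between Ces2a and Ces2b and 0.95 between Ces2a and Ces2e. The smallest and the widest difference thus stood in the same cluster. The measure grows with a gene's own spread, whose root mean square was 0.14 for Ces2c, 0.086 for Ces2g and 0.73 for Ces2a. A small difference can therefore join nearly flat profiles, and the order of the pairs is no ranking of likeness.

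The 8 members held 97.3% to 98.3% of the TPM of all carboxylesterase genes in each library. Of the other 11, Ces1e and Ces2d-ps passed the filter. Ces1e, a neighbour of Ces1d known in mice as a retinyl ester hydrolase of the liver, had 35.8, 38.8 and 40.8 TPM in ampicillin-mock libraries, against 29.2, 21.97 and 30.4 TPM in vehicle-mock libraries. It was higher with ampicillin, unlike the Ces1 members around it, at a log2 fold change of 0.50 ± 0.12 (SE, limma adjusted p = 0.0177), a call lost without ampicillin-mock replicate 2 (0.0583) or 3 (0.0649). It averaged 29.5 ± 2.19 TPM in ampicillin-tributyrin and 38.5 ± 2.54 TPM in ampicillin-mock libraries (SD, n = 3 each) and just missed the threshold (adjusted p = 0.0520), which it passed under 8 alternatives.
Ces2d-ps, a transcribed pseudogene of the Ces2 cluster, averaged 3.24 ± 0.545, 3.71 ± 0.317 and 3.60 ± 0.486 TPM in ampicillin-tributyrin, ampicillin-mock and vehicle-mock libraries (SD, n = 3 each) and was called in none of the 3 comparisons. Ces1b, Ces2f and Ces2h had mean levels from 0.193 to 0.723 TPM over the 9 libraries. The other 6 were at or near 0, and Ces4a was at 0 in all 9 libraries.
Protein-coding genes of other families within 250 kb of the clusters were then read. Around the Ces1 cluster 1 of 4 such genes was tested, Lpcat2, a phospholipid acyltransferase, which was lower with tributyrin (log2 fold change -0.29, limma adjusted p = 0.0298) and not called with ampicillin. Around the Ces2 cluster 7 of 13 were tested. A single one of them, Tradd, an adaptor of the TNF receptor, was lower with ampicillin (-0.14, adjusted p = 0.0338), and none was called with tributyrin.

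For each member, the 3 most alike of 11528 other tested genes were found by the same root mean square difference over the 9 libraries. For Ces2a these were Slc30a10 (0.21), a manganese exporter, Pdlim2 (0.22) and Alpi (0.23). Slc30a10 averaged 5.70 ± 0.679, 9.32 ± 2.23 and 26.7 ± 0.730 TPM in ampicillin-tributyrin, ampicillin-mock and vehicle-mock libraries (SD, n = 3 each). The measure grows with a member's own spread, whose root mean square was 0.73 for Ces2a, 0.14 for Ces2c and 0.086 for Ces2g, so distances are not compared between members.
For Ces1g they were Id3 (0.11), a repressor of helix-loop-helix factors, Copz2 (0.12) and Fkbp9 (0.13). Id3 averaged 77.9 ± 3.21, 66.7 ± 6.66 and 143 ± 28.7 TPM in the same order of groups (SD, n = 3 each). For Ces1d they were Sema3g (0.09), Mtch2 (0.11), a mitochondrial membrane protein, and Capsl (0.12). Mtch2 averaged 146 ± 4.31, 149 ± 4.19 and 244 ± 22.6 TPM (SD, n = 3 each). For Ces1f they were Ipp (0.05), Igip (0.05) and Ccdc117 (0.06).
For Ces2e they were Mctp1 (0.06), Mospd1 (0.07) and Dusp3 (0.08), a phosphatase, and for Ces2b Trpm7 (0.08), an ion channel with a kinase domain, Nat8f4 (0.08) and Dnajb9 (0.10), a chaperone of the endoplasmic reticulum. Dnajb9 averaged 71.2 ± 7.48, 85.2 ± 5.45 and 52.4 ± 2.44 TPM (SD, n = 3 each). Mctp1 was low as well, with group means from 1.15 to 2.67 TPM. For Ces2c they were Aph1a (0.04), a subunit of gamma-secretase, Rnf14 (0.05) and Slc9a2 (0.05), a sodium/proton exchanger. For Ces2g they were Abi1 (0.02), Ets2 (0.03) and Blcap (0.03).

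The other hydrolases of lipids and drugs, the conjugating enzymes and the regulators that act on such genes were read from gene lists. Of 27 lipases and glyceride hydrolases, 18 were tested. With ampicillin, 4 were called higher and 8 lower (11.0% and 10.2% of all genes), with a median log2 fold change of -0.18 beside 0.02 over all genes. With tributyrin, 6 were higher and 1 lower (15.6% and 7.54% of all genes), with a median of 0.08 beside 0.05 over all genes. Mgll, the main monoglyceride lipase, averaged 18.4 ± 2.26 TPM in ampicillin-mock against 33.8 ± 1.43 TPM in vehicle-mock libraries (log2 fold change -0.85, limma adjusted p = 0.000261). With tributyrin it averaged 25.1 ± 1.11 TPM against 18.4 ± 2.26 TPM in ampicillin-mock libraries (0.44, adjusted p = 0.00805; SD, n = 3 each).
Nceh1, a cholesteryl ester hydrolase, was likewise lower with ampicillin (-0.75) and higher with tributyrin (0.42), and Abhd6, a monoglyceride lipase, was higher with tributyrin (0.36). Lpl, lipoprotein lipase, was lower with ampicillin (-0.59) and higher with tributyrin (0.30), a call lost without ampicillin-tributyrin replicate 2 (0.0528). Pnpla2, the triglyceride lipase ATGL, was lower with ampicillin (83.1 ± 4.79 against 113 ± 4.05 TPM, SD, n = 3 each), and Ddhd2, a neutral lipid hydrolase, was higher (0.53). Lipe, hormone-sensitive lipase, was called lower with ampicillin (-0.39, adjusted p = 0.0322), and Lipa, lysosomal acid lipase, lower with tributyrin (-0.25, adjusted p = 0.0495). The call of Lipe was lost without any one of the vehicle-mock or ampicillin-mock libraries (adjusted p up to 0.104). That of Lipa was lost without vehicle-mock replicate 3 or any one of the ampicillin libraries (up to 0.133, without ampicillin-mock replicate 3). Pnlip and Lipf, the pancreatic and gastric lipases, were at 0 in all 9 libraries, and Cel averaged under 0.1 TPM in each group.

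Of 13 genes of glyceride synthesis, 12 were tested. With ampicillin 1 was higher and 1 lower (median log2 fold change -0.16), and with tributyrin 2 were higher and 2 lower (median -0.0039). Over all genes, 21.3% were called with ampicillin and 23.2% with tributyrin, with medians of 0.02 and 0.05, so these counts lay near the background. Mogat2, the monoacylglycerol acyltransferase of the gut, averaged 9.69 ± 1.86 TPM in ampicillin-tributyrin and 3.20 ± 0.237 TPM in ampicillin-mock libraries (log2 fold change 1.34, limma adjusted p = 0.0103, SD, n = 3 each). Lpin3, a phosphatidate phosphatase, was called higher with ampicillin (0.26) and lower with tributyrin (-0.35). Dgat2, an acyltransferase of triglyceride synthesis, was called lower with ampicillin (-0.38) and higher with tributyrin (0.36), and Lpin1 lower with tributyrin (-0.41). The calls with ampicillin of Lpin3 and Dgat2, and those with tributyrin of Dgat2 and Lpin1, were lost when single libraries were left out, with adjusted p up to 0.0834 for Lpin3 without vehicle-mock replicate 1, up to 0.116 without vehicle-mock replicate 3 and 0.133 without ampicillin-tributyrin replicate 2 for Dgat2, and up to 0.0706 for Lpin1 without ampicillin-mock replicate 2.

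Of 12 other drug and ester hydrolases, 11 were tested. With ampicillin 2 were higher and 3 lower (median -0.05), beside 11.0% and 10.2% of all genes, and with tributyrin 2 were higher and none lower (median 0.13), beside 15.6% and 7.54%. Bche, butyrylcholinesterase, averaged 13.8 ± 0.424 TPM in ampicillin-mock against 7.72 ± 1.32 TPM in vehicle-mock libraries (log2 fold change 0.77, limma adjusted p = 0.00188, SD, n = 3 each). Aadac, arylacetamide deacetylase, an esterase of the endoplasmic reticulum that shares drug substrates with carboxylesterases, was lower at 94.3 ± 7.08 against 122 ± 4.32 TPM (SD, n = 3 each). Ephx2 (-0.61) and Pon2 (-0.49), an epoxide hydrolase and a lactonase, were also lower with ampicillin. Ephx1, the microsomal epoxide hydrolase, was higher with tributyrin (10.9 ± 1.37 against 6.65 ± 0.483 TPM, SD, n = 3 each), and so was Bphl, a prodrug-activating hydrolase (0.27), a call lost without ampicillin-tributyrin replicate 2 (0.0518).
Of 13 drug conjugation enzymes, 12 were tested. With ampicillin 2 were higher and 4 lower (median -0.16), beside 11.0% and 10.2% of all genes. With tributyrin 6 were higher and 1 lower (median 0.18), beside 15.6% and 7.54% of all genes. The glucuronosyltransferase Ugt1a6a was lower with ampicillin (-0.76) and higher with tributyrin (0.38), as was Ugt2b35 (-0.54 and 0.50). Ugt1a1 was higher with ampicillin (0.74), and the sulfotransferase Sult1a1 was lower (-0.72). Ugt2b36 was higher with tributyrin (0.74), and the sulfotransferase Sult1c2 was lower (-0.38).

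**Figure D4:**
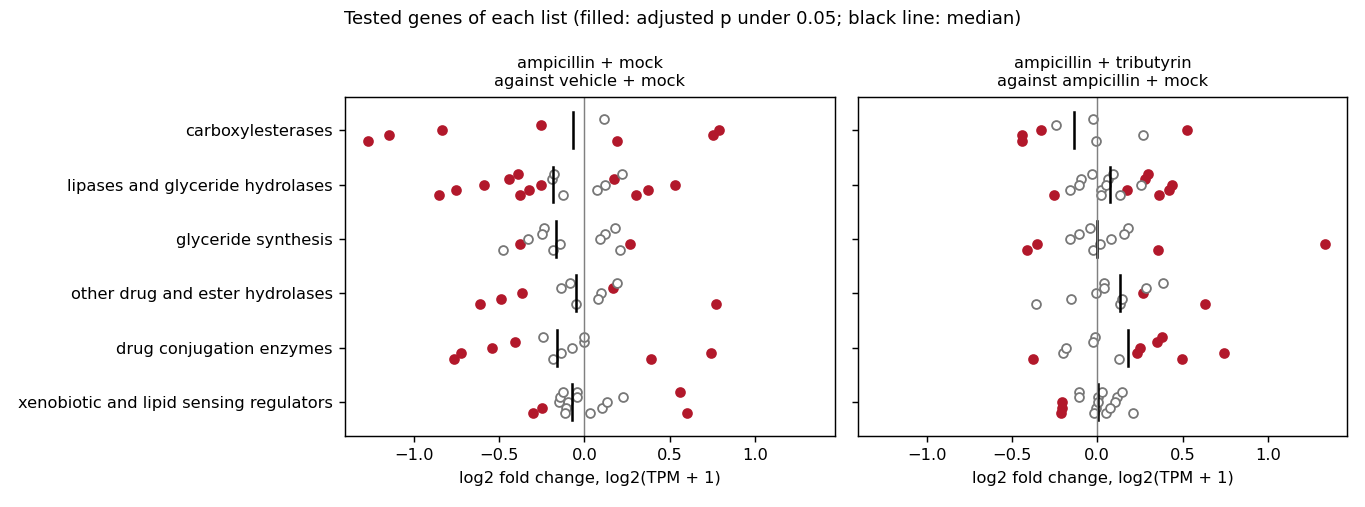
Log2 fold change of the tested genes of each list, on the log2(TPM + 1) scale, with ampicillin against vehicle and with tributyrin against mock gavage. Filled points are calls at an adjusted p under 0.05, and bars mark list medians. Lipases and glyceride hydrolases have medians of -0.18 with ampicillin and 0.08 with tributyrin, and drug conjugation enzymes -0.16 and 0.18.

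Of 16 regulators of xenobiotic and lipid genes, all were tested. With ampicillin 2 were higher and 2 lower, beside 11.0% and 10.2% of all genes. With tributyrin none was higher and 3 were lower, beside 15.6% and 7.54% of all genes. The medians were -0.07 and 0.0039. Taken in either direction, the counts lay near the 21.3% and 23.2% of all genes called. The medians over all genes were 0.02 and 0.05. Nr1i2, the pregnane X receptor, averaged 52.1 ± 2.90 TPM in ampicillin-mock and 53.8 ± 3.42 TPM in vehicle-mock libraries and was not called (limma adjusted p = 0.675, SD, n = 3 each). Nr1i3, the constitutive androstane receptor, averaged 12.3 ± 1.54 and 8.10 ± 1.59 TPM (SD, n = 3 each) and was called (0.56, adjusted p = 0.0309), but not without ampicillin-mock replicate 1, 2 or 3 or vehicle-mock replicate 2 (adjusted p up to 0.105). Both receptors respond to drugs and are known to control carboxylesterase genes in mouse liver.
Nr1h3, the liver X receptor alpha, was higher with ampicillin (0.60, adjusted p = 0.000123) and called lower with tributyrin (-0.21, 0.0202), a call lost without ampicillin-mock replicate 1 or 3 or ampicillin-tributyrin replicate 2 (adjusted p up to 0.0751). Pparg was lower with ampicillin (-0.30, 0.0124). Ppard was called lower with ampicillin (-0.25, 0.0411), and Pparg (-0.21, 0.0487) and the bile acid receptor Nr1h4 (-0.21, 0.0444) lower with tributyrin, but each of these 3 calls was lost when single libraries were left out, with adjusted p up to 0.128 for Ppard, 0.136 for Pparg and 0.129 for Nr1h4, each without ampicillin-mock replicate 3. Hnf4a, a factor of the gut and liver epithelium, averaged 302 ± 20.2, 261 ± 6.68 and 289 ± 29.4 TPM in ampicillin-tributyrin, ampicillin-mock and vehicle-mock libraries (SD, n = 3 each). It was called neither with ampicillin (adjusted p = 0.233) nor with tributyrin (0.0863), but it was called higher with tributyrin without vehicle-mock replicate 2 (0.0368). Cdx2 and Ppara were not called in either comparison, with adjusted p from 0.381 to 0.781.
Of the genes of these lists named as called with ampicillin, 4 were not called without vehicle-mock replicate 2, namely Dgat2 (adjusted p = 0.0989), Lipe (0.0813), Nr1i3 (0.0672) and Ppard (0.110). The others kept their call and direction without that library, for example Mgll (-0.86) and Nceh1 (-0.72).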

How the data were processed

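RNA of 9 libraries (caecal epithelial cells, NEBNext Ultra II, per the labels' protocols) was read from a table of TPM values per gene that the authors deposited. The submitters' processing notes name Salmon 0.8.2, DESeq2 1.20.0 and the mm10 build. How TPM was summed to genes is not given in the sources used here. The TPM of a library summed to between 999833 and 999866. No depth is kept in TPM, so no counting error can be given, and the 3 libraries a group limit the precision.

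Groups came from the sample titles. Values were taken as log2(TPM + 1), and the 12155 of 24091 genes with a mean of at least 1 TPM were fitted in limma 3.58.1 (R 4.3.3; lmFit, eBayes with trend, 6 residual degrees of freedom) on all 9 libraries, with 1 mean per group. The two-sided p-values were adjusted by Benjamini-Hochberg over all tested genes and called under 0.05. The fit was tested on simulated data. A change is relative to the library total.

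The members, lists and tests were chosen with earlier results of these data known. Other genes named are carboxylesterases with a mean of at least 0.1 TPM, up to 4 called genes of each pathway list with the largest change in each of the first 2 comparisons, 12 listed regulators and hydrolases, the 3 most alike genes of each member, the neighbours that were called, and cell type markers. A further regulator is not reported here. The neighbours and markers named with values were chosen after their values were seen. Of the gene IDs, 24045 matched the RefSeq table. Promoter windows came from RefSeq (GRCm38.p6), and alignments were made with Biopython 1.88. Alternatives covered the pseudocount, the filter, the scaling, short RNA entries, a replicate block, the samples in the fit, array weights and leaving out each library.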

Additional observations from a re-analysis of the deposited data

How the results depend on the processing

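Under 17 alternatives, Ces1d, Ces1g, Ces2a, Ces2b and Ces2e kept their direction and their call with ampicillin against vehicle, and Ces1f, Ces2c and Ces2e kept theirs with tributyrin against mock gavage. The members' calls that were lost are given beside the results, and the cause was not tested. The number of members called higher with ampicillin and tributyrin against vehicle was 3, and 0 to 3 when single libraries were left out. Over all genes, the calls with tributyrin against mock gavage were 1902 higher and 917 lower. Quantile normalization gave 1466 higher and 1647 lower, and array weights 2956 higher. With ampicillin and tributyrin against vehicle, 2325 were higher and 1119 lower, and 1683 and 1663 with quantile normalization. Leaving out single libraries gave 806 to 1479 genes higher with ampicillin, and 1036 to 2253 higher and 481 to 912 lower with tributyrin against mock gavage. It gave 1349 to 2814 higher and 744 to 1006 lower with ampicillin and tributyrin against vehicle. With short RNA entries left out, the members' sum averaged 1474, 1682 and 1767 TPM in ampicillin-tributyrin, ampicillin-mock and vehicle-mock libraries. With all entries it averaged 1429, 1610 and 1678 TPM. Fold changes that changed sign were all near 0 and not called: with ampicillin Ces2d-ps (-0.0083 with array weights), and when single libraries were left out Ces2d-ps (-0.022 to 0.12), Ppara (-0.15 to 0.017) and Nr1i2 (-0.097 to 0.0015), and with tributyrin Ces2g (0.021 with array weights, and -0.056 to 0.056 with single libraries left out) Ces1d (-0.12 to 0.034), Nr1i3 (-0.061 with quantile normalization, -0.012 with short RNA entries left out, -0.013 with array weights, -0.0996 to 0.098 with single libraries left out), Lipe (-0.042 to 0.18) and Pnpla2 (-0.029 to 0.071). Libraries with the same replicate number deviated together only weakly (r from -0.050 to 0.11 over 9 pairs). Libraries with different numbers had r from -0.12 to 0.075. The labels do not say what the numbers mark, and with 3 libraries a group these values cannot decide whether they pair the samples. With the replicate number as a block, 1370 genes were higher and 1337 lower with ampicillin, and 1977 and 1032 with tributyrin against mock gavage. With ampicillin and tributyrin against vehicle they were 2341 and 1228. In the same order of comparisons, the members' counts stayed at 3 higher and 4 lower, 1 and 3, and 3 and 3. With tributyrin against mock gavage, the block brought Hnf4a (adjusted p = 0.0469) and Ces1e (0.0309) past the threshold and took Lipa (0.0600) from it.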
